A study of Mus musculus with 10 samples.

Results

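Chemokines are small secreted proteins that attract leukocytes, and their receptors are membrane proteins that signal through inhibitory G proteins. Members of the CXC class that carry an ELR sequence attract neutrophils through Cxcr2, members induced by interferon gamma attract activated T cells through Cxcr3, and many CC members attract monocytes, eosinophils and lymphocytes. In the gut, some members are made without injury: Ccl25 of the small intestine draws lymphocytes that carry Ccr9, and Ccl28 of the colon draws antibody-secreting cells that carry Ccr10.

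All genes of the RPKM table (reads per kilobase of gene, scaled to library depth) whose mouse symbol is Ccl, Cxcl, Ccr or Cxcr followed by a digit, or is Cx3cl1, Cx3cr1, Xcl1 or Xcr1, were taken. They numbered 55 of 23079 genes, with 36 ligands and 19 receptors. Of these, 39 were above 0 in all 10 libraries, 9 stayed under 1 RPKM in every library, and Ccl21d was listed at 0 throughout.

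Male C57BL/6J mice, 17 weeks of age and kept for 13 weeks on high-fat food, went without food overnight and were then operated on, and libraries were made from their stomach, duodenum, jejunum, ileum and colon. Vertical sleeve gastrectomy (VSG) removed the lateral 80% of the stomach. Sham animals had the abdomen opened and the stomach pressed gently with hemostats. All mice were then given liquid food for 3 days before high-fat food was brought back. The stomach library after VSG therefore comes from the remaining pouch and the sham library from a whole organ, so operation and region of the stomach cannot be told apart. There was 1 library for each tissue and operation, and the labels give neither the number of animals behind a library nor the time of sampling. Differences within a tissue have no replicate check. Where tissues serve as the repeats, a p-value reflects the spread of these libraries alone, and part of that may be technical. In these bulk tissues, fewer cells of a type and less RNA per cell cannot be told apart.

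Depth, as reads on genes recovered from the values, was least in VSG jejunum (36073695) and greatest in sham stomach (79313168). Marker genes went against the tissue label in the library labelled sham duodenum, where 8 neuron and glia markers summed to 1740 RPKM and 7 enterocyte markers to 11.8 RPKM. In the VSG duodenum library these sums were 14.7 and 27915 RPKM, and 6 stomach markers summed to 1975 RPKM there, against 8.18 RPKM in the library labelled sham duodenum. That sham library was left out of the tests, except in alternatives that say so. The VSG stomach library held its stomach markers and also 9 liver markers, among them the plasma protein gene Alb, at a sum of 19797 RPKM, against 1006 RPKM in sham stomach.

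The starts of Cxcl1, Cxcl2 and Cxcl3 carried the same 10-base run upstream, and these stretches are shown because the 3 ligands had some of the largest differences between VSG and sham stomach. RefSeq promoter windows (GRCm38.p6, 250 bases before to 50 after a start) were matched for 40 of the 55 genes, with 44 windows in all. The run GGGAATTTCC was read from the windows of Cxcl1, Cxcl2 and Cxcl3, so these 3 hold it by choice. Searched on both strands, it lay in 29 of 32851 promoter windows (0.0883%). Of the 44 windows 4 held it, those of Cxcl1, Cxcl2, Cxcl3 and Ccr3, and only that of Ccr3 was not fixed in advance. The run is a form of the NF-kappa B consensus motif, which was found in 8.46% of all windows and in 11 of the 44. Cxcl5, whose difference was among the largest too, was not among the members with a match to either, and not every member had a window. The capitals mark the run, which began 71, 97 and 73 bases before the start of Cxcl1, Cxcl2 and Cxcl3, in stretches that end at the base before the start. For Cxcl10, induced by interferon gamma, the capitals mark NF-kappa B consensus matches, the second run being a pair of matches that overlap by 9 bases.
Cxcl1 (chr5:90891125-90891244, plus strand): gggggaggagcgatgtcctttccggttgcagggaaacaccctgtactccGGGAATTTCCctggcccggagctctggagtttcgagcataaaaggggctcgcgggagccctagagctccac
Cxcl2 (chr5:90903779-90903898, plus strand): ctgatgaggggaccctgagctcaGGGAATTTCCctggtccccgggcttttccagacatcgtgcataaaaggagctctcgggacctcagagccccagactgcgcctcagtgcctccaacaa
Cxcl3 (chr5:90785981-90786100, plus strand): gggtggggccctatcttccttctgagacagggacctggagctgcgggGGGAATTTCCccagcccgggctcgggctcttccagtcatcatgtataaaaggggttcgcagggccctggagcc
Cxcl10 (chr5:92348890-92349109, minus strand): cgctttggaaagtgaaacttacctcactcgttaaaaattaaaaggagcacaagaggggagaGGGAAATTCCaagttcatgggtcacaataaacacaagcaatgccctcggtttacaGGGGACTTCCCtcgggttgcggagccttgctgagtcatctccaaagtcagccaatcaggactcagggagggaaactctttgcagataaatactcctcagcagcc

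A match describes these letters only, and nothing about binding was measured. The genes also lie close together: Cxcl5, Cxcl3, Cxcl15, Cxcl1 and Cxcl2 stand in this order on chromosome 5 between bases 90759298 and 90905938. Cxcl9, Cxcl10 and Cxcl11 lie on the same chromosome between bases 92321331 and 92363296. Of the other members, 12 CC and CXC ligands were on chromosome 11 and 12 receptors on chromosome 9.

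In the stomach, most of the family stood higher after VSG, led by ligands that attract neutrophils. Of 35 members that averaged 1 RPKM or more over both stomach libraries, 27 were 2-fold or more higher in VSG stomach and 0 were 2-fold or more lower, on the scale of log2(RPKM + 1), which understates the change of low genes. Of all 13358 genes kept by the same filter, 12.9% were higher by that margin and 3.95% lower. A gene that is high in VSG alone passes such a filter and then had to differ, so the count over the 35 is a description only. Genes at 1 RPKM or more in the sham stomach were therefore also counted, a choice made after seeing the data: 12 of 19 members and 8.01% of all genes were then at least 2-fold higher. The median difference on the log2 scale was 1.49 over these 19 members and -0.05 over all such genes. Scaling the libraries to the sum without the 10 highest genes moved the median of all genes by -0.32 on the log2 scale. Relative to that scale 26 members were higher and 1, Cxcl17, was lower.

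**Figure D1:**
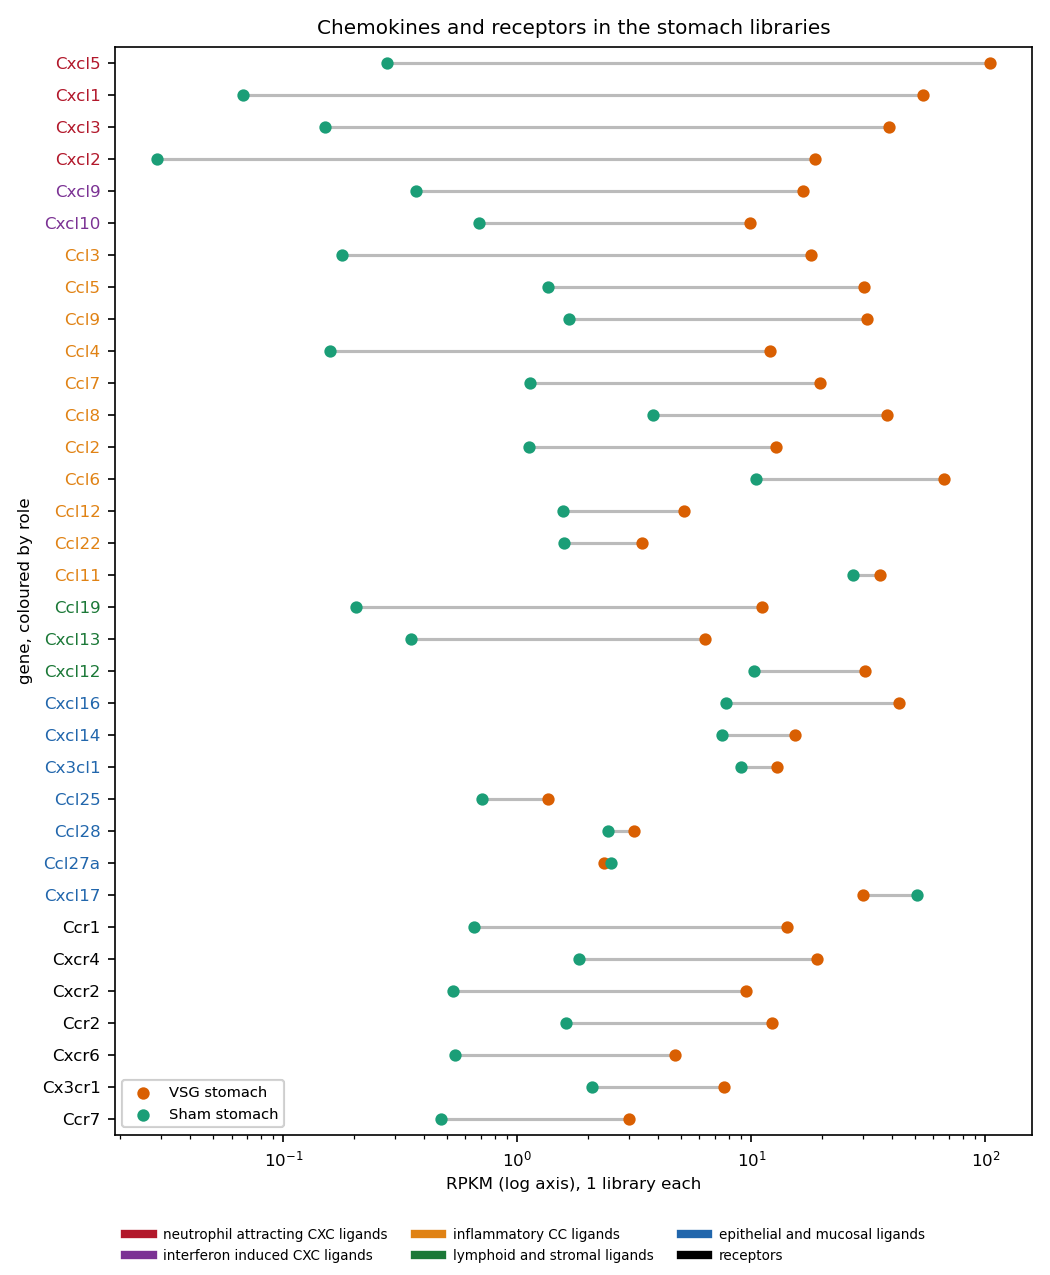
RPKM of 34 of the 35 kept chemokine and receptor genes in the VSG (orange) and sham (green) stomach library, on a log axis, with 1 library each and gene names coloured by role. The 4 ligands that attract neutrophils lie between 18.7 and 105 RPKM in VSG stomach and at 0.0287 to 0.278 RPKM in sham stomach, while Ccl11, Ccl28 and Ccl27a lie close together in both.

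Of the 5 ligands that attract neutrophils, 4 were kept, all through the VSG stomach library alone, and 0 were at 1 RPKM or more in sham stomach, so their values are given as a description. Cxcl5 had 105 RPKM in VSG stomach and 0.278 RPKM in sham stomach, from 8044 and 36 reads. Its ratio was 378 (exact conditional binomial 95% interval 273 to 541, counting error only). Cxcl1 had 53.9 RPKM in VSG stomach and 0.0672 RPKM in sham stomach, a ratio of 802 (343 to 2471) that rests on 5 reads in the sham library. Cxcl3 had 38.7 RPKM in VSG stomach and 0.151 RPKM in sham stomach, a ratio of 256 (146 to 496). Cxcl2 had 18.7 RPKM in VSG stomach and 0.0287 RPKM in sham stomach, a ratio of 650 (298 to 1773) with 6 sham reads. In the other 8 libraries each of these 4 genes stayed under 1 RPKM, so that the VSG stomach stood apart from all other libraries. Cxcl15, a ligand known mainly from lung, had 0.213 RPKM in VSG stomach and 0.0180 RPKM in sham stomach and was not kept.

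The ligands induced by interferon gamma were also under 1 RPKM in sham stomach, and 2 of 3 were kept through the VSG library. Cxcl9 had 16.6 RPKM in VSG stomach and 0.369 RPKM in sham stomach, a ratio of 45.1 (36.3 to 56.8). Cxcl10 had 9.86 RPKM in VSG stomach and 0.688 RPKM in sham stomach, a ratio of 14.3 (11.8 to 17.5). Exons of Art3, on the opposite strand, cover 5.91% of the Cxcl10 exon bases, and the libraries do not mark strand. Art3 had 5.29 RPKM in VSG stomach and 11.7 RPKM in sham stomach, and its part in the Cxcl10 values was not tested. The third ligand of this group, Cxcl11, was low in stomach, with 0.647 RPKM after VSG and 0.0557 RPKM after sham, and reached 2.83 RPKM in sham jejunum.

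Of the 15 inflammatory CC ligands, 9 were at 1 RPKM or more in sham stomach, and 7 of these were at least 2-fold higher in VSG stomach. Another 2 were kept through the VSG library alone. These were Ccl3 and Ccl4, made by activated macrophages and lymphocytes. Ccl3 had 18.0 RPKM in VSG stomach and 0.178 RPKM in sham stomach, a ratio of 101 (56.2 to 204). Ccl4 had 12.0 RPKM in VSG stomach and 0.158 RPKM in sham stomach, a ratio of 76.0 (39.7 to 167). Ccl5, which attracts T cells and monocytes, had 30.2 RPKM in VSG stomach and 1.35 RPKM in sham stomach. The monocyte attractants Ccl2 and Ccl7 followed the same direction. Ccl2 had 12.7 RPKM in VSG stomach and 1.12 RPKM in sham stomach, and Ccl7 had 19.7 RPKM in VSG stomach and 1.13 RPKM in sham stomach. Ccl8 had 38.1 RPKM in VSG stomach and 3.79 RPKM in sham stomach, and Ccl12 had 5.16 RPKM in VSG stomach and 1.57 RPKM in sham stomach. Ccl6 and Ccl9, a pair of rodent CC ligands, had 66.4 and 31.2 RPKM in VSG stomach, against 10.5 and 1.66 RPKM in sham stomach. Ccl11, which attracts eosinophils, was high in both libraries, with 35.4 RPKM in VSG stomach and 27.3 RPKM in sham stomach, and Ccl22, a Ccr4 ligand, had 3.41 RPKM in VSG stomach and 1.59 RPKM in sham stomach.

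The 3 lymphoid and stromal ligands had higher levels in VSG stomach, and Cxcl12 alone was at 1 RPKM or more in sham stomach. Ccl19, a Ccr7 ligand, had 11.1 RPKM in VSG stomach and 0.204 RPKM in sham stomach, a ratio of 54.5 (36.0 to 86.5). Cxcl13, which draws B cells into follicles, had 6.34 RPKM in VSG stomach and 0.351 RPKM in sham stomach. Cxcl12, which retains cells that carry Cxcr4, had 30.7 RPKM in VSG stomach and 10.3 RPKM in sham stomach, a ratio of 2.99 (2.91 to 3.07).

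The epithelial and mucosal ligands were less uniform: of the 6 at 1 RPKM or more in sham stomach, 1 was at least 2-fold higher. This was Cxcl16, a transmembrane ligand of Cxcr6, with 43.0 RPKM in VSG stomach and 7.82 RPKM in sham stomach. Cxcl14 had 15.4 RPKM in VSG stomach and 7.49 RPKM in sham stomach, a log2(RPKM + 1) difference of 0.95. Cx3cl1, a membrane-bound ligand, had 12.9 RPKM in VSG stomach and 9.06 RPKM in sham stomach. Cxcl17, a mucosal ligand, was the kept member with the largest difference in the other direction, with 30.1 RPKM in VSG stomach and 50.8 RPKM in sham stomach. That is a level 1.69-fold lower (1.53 to 1.86) after VSG. The 6 stomach markers summed to 26922 RPKM in VSG stomach and 52062 RPKM in sham stomach, and their part in the value of Cxcl17 was not tested.

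Of the 19 receptors, 3 were at 1 RPKM or more in sham stomach, Cxcr4, Ccr2 and Cx3cr1, and all 3 were at least 2-fold higher in VSG stomach. Cxcr4, the receptor of Cxcl12, had 19.0 RPKM in VSG stomach and 1.84 RPKM in sham stomach. Ccr1, a receptor of Ccl3 and Ccl5, had 14.1 RPKM in VSG stomach and 0.653 RPKM in sham stomach. Ccr2, the receptor of Ccl2, had 12.2 RPKM in VSG stomach and 1.61 RPKM in sham stomach. Cxcr2, the neutrophil receptor of Cxcl1, Cxcl2 and Cxcl5, had 9.51 RPKM in VSG stomach and 0.528 RPKM in sham stomach, a ratio of 18.0 (15.0 to 21.8), and in the other 8 libraries it reached 0.152 RPKM at most. Its relative Cxcr1 had 1.56 RPKM in VSG stomach and 0.420 RPKM in sham stomach and was listed at 0 in the other 8 libraries. Cx3cr1, Cxcr6 and Ccr7 had 7.66, 4.74 and 3.01 RPKM in VSG stomach, against 2.08, 0.539 and 0.472 RPKM in sham stomach. Ccr3, Ccr4, Ccr6, Ccr8, Ccr9, Ccr10, Ccr1l1 and Xcr1 stayed under 1 RPKM in both stomach libraries.

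Markers of most leukocyte types and of liver moved with these genes, while those on the list of mast cells and eosinophils went both ways. In VSG stomach the 9 neutrophil markers summed to 1639 RPKM and in sham stomach to 37.2 RPKM, with all 9 at least 2-fold higher. The 10 macrophage and dendritic markers summed to 2469 RPKM in VSG stomach and 131 RPKM in sham stomach, with 9 at least 2-fold higher. The 10 T and NK markers summed to 23.8 RPKM in VSG stomach and 2.67 RPKM in sham stomach, and the 7 B and plasma markers to 146 RPKM in VSG stomach and 11.8 RPKM in sham stomach. The 9 liver markers summed to 19797 RPKM in VSG stomach and 1006 RPKM in sham stomach, and all 9 were at least 2-fold higher. Most of the sham sum was Apoa1, at 937 RPKM. Alb had 5128 RPKM in VSG stomach and 1.69 RPKM in sham stomach. The 7 mast cell and eosinophil markers summed to 38.1 RPKM in VSG stomach and 32.9 RPKM in sham stomach, and 0 of 5 kept were at least 2-fold higher on the log2(RPKM + 1) scale. Of the eosinophil markers, Siglecf and Prg2 had 1.95 and 0.773 RPKM in VSG stomach, against 0.535 and 0.0609 RPKM in sham stomach. The mast cell markers Cpa3 and Mcpt4 had 3.20 and 2.62 RPKM in VSG stomach, against 5.82 and 5.00 RPKM in sham stomach. Mcpt1 and Mcpt2 had 15.0 and 14.6 RPKM, against 8.30 and 13.2 RPKM. Of the defining markers, Ngp of neutrophils was listed at 0 in sham stomach. The part of other cell types and of liver tissue in the chemokine differences was not tested.

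To ask whether the difference between VSG and sham differed between stomach and intestine, a limma fit across all genes set the stomach difference against the mean difference of jejunum, ileum and colon. At a Benjamini-Hochberg adjusted p under 0.05, 30 of 41 tested members had the larger difference in stomach and 1, Cxcl17, the smaller. Over all 13350 genes tested, 15.8% had a larger and 10% a smaller difference in stomach. Of the 41, 17 had passed the filter on low values only through the stomach libraries. When only genes that averaged 1 RPKM or more over the 6 intestinal libraries were counted, with the same p-values, a choice made after seeing the data, 14 of 24 members and 13.9% of genes had the larger difference in stomach. The stomach side of this test is 1 pair of libraries, and its spread comes from the 3 intestinal pairs.

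Of the 14 members, CC ligands and leukocyte receptors led. The difference in stomach exceeded that in intestine by 3.64 for Ccl5 (SE 0.29, limma adjusted p = 7.0e-04), by 3.29 for Ccl9 (SE 0.26, adjusted p = 7.0e-04) and by 2.88 for Ccr1 (SE 0.20, adjusted p = 4.1e-04), all on the log2(RPKM + 1) scale. It exceeded it by 2.79 for Ccl8, by 2.74 for Cxcr4, by 2.37 for Cxcl13, by 2.22 for Ccl6 and by 2.10 for Cxcl16. The 4 neutrophil ligands are among the 17 members that were tested through the stomach libraries alone. Their values, 5.95 for Cxcl5, 5.57 for Cxcl1, 5.15 for Cxcl3 and 4.22 for Cxcl2, were the highest of all tested members and are given as a description. The members tested and not called were Ccl28, Ccr10, Ccl27a, Ccl11, Cx3cl1, Ccl25, Ccl24, Xcl1, Cxcl11 and Ccl22, with values from -0.18 to 0.70. Cxcl17 and Ccl12 are also among the 17, so their values below are a description too. Cxcl17 reached at most 0.211 RPKM in jejunum, ileum and colon, where its differences had to lie near 0. Over genes kept on the intestinal libraries alone, 0 members had the smaller difference in stomach. Cxcl17 had a value of -0.72 (SE 0.16, limma adjusted p = 0.026), which was not called without the ileum pair (adjusted p = 0.078) or the colon pair (adjusted p = 0.067). Ccl12 (1.34, adjusted p = 0.025) was not called without the colon pair (adjusted p = 0.062). Cx3cr1 (1.25, adjusted p = 0.037) was not called without the ileum pair (adjusted p = 0.056) or the colon pair (adjusted p = 0.053).

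**Figure D2:**
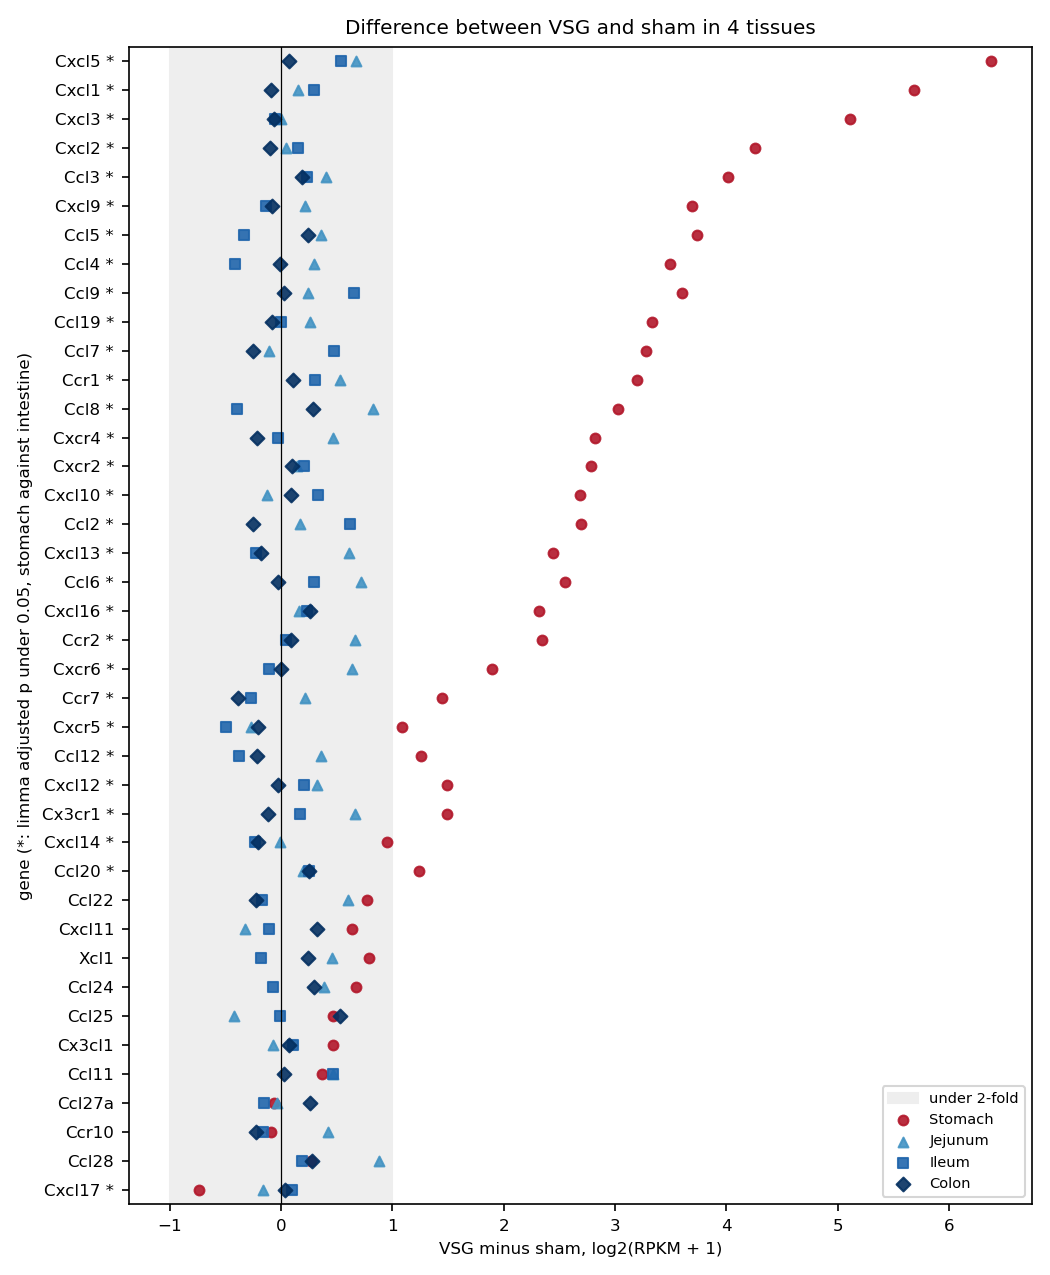
Difference between VSG and sham on the log2(RPKM + 1) scale for 40 of the 41 tested genes, with 1 point for each of stomach, jejunum, ileum and colon, in order of the difference between stomach and intestine. The grey band marks differences under 2-fold, and every jejunum, ileum and colon point lies inside it, whereas Cxcl5 lies at 6.37 in stomach.

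In jejunum, ileum and colon, 0 members were at least 2-fold higher or lower in VSG, of 22, 27 and 26 kept. Such differences were rare over all genes: 0.762% of genes were higher and 0.3% lower in jejunum, 0.148% and 0.123% in ileum, and 0.432% and 0.0463% in colon. Over these 3 tissues, limma called 0 of 24 tested members at an adjusted p under 0.05 and 2 genes of 12608 (0.0159%). At an unadjusted p under 0.05 there were 7 members, 6 of them higher after VSG, and the smallest adjusted p was 0.632. Over stomach and the 3 intestinal tissues together, 0 of 41 members and 0 of 13350 genes (0% in either direction) were called, with 2 members and 349 genes at an unadjusted p under 0.05. In that fit 39 of the 41 differences were above 0.

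The member closest to a call in the intestine was Ccl28. It had 9.42 RPKM in VSG jejunum and 4.65 RPKM in sham jejunum, 11.9 RPKM in VSG ileum and 10.4 RPKM in sham ileum, and 39.8 RPKM in VSG colon and 32.6 RPKM in sham colon. It was thus higher after VSG in 3 of 3 pairs, by 0.45 on average on the log2 scale (SE 0.14, limma adjusted p = 0.632), and was called without the ileum pair (0.58, adjusted p = 0.045). The fit without that pair had 1 residual degree of freedom and called 100 of 12692 genes higher. The Ccl28 receptor Ccr10 had 1.47, 1.26 and 1.39 RPKM in VSG jejunum, ileum and colon, against 0.838, 1.53 and 1.80 RPKM in the sham libraries. Cxcr5, the receptor of Cxcl13 on follicular B and T cells, was lower in 3 of 3 VSG libraries, by 0.33 on average (SE 0.10, limma adjusted p = 0.637). It had 0.273, 1.15 and 1.28 RPKM in VSG jejunum, ileum and colon, against 0.540, 2.04 and 1.63 RPKM after sham.

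In jejunum the next largest differences after that of Ccl28 were all higher in VSG. Ccl6 had 64.5 RPKM in VSG jejunum and 38.7 RPKM in sham jejunum. Cx3cr1, the receptor of Cx3cl1 on monocytes and macrophages, had 5.27 RPKM in VSG and 2.96 RPKM in sham, and Cxcl13 had 3.71 RPKM in VSG and 2.08 RPKM in sham. Macrophage and dendritic markers summed to 501 RPKM in VSG jejunum and 251 RPKM in sham jejunum, and neutrophil markers to 10.4 and 2.18 RPKM, and their part in the jejunum values was not tested. In ileum the largest difference was that of Ccl9, with 7.72 RPKM in VSG and 4.52 RPKM in sham. Ileal Ccl11 had 10.2 RPKM in VSG and 7.12 RPKM in sham, while Ccl8 and Ccl5 had 1.30 and 3.96 RPKM in VSG, against 2.04 and 5.24 RPKM in sham. In colon Ccl25 had 3.61 RPKM in VSG and 2.20 RPKM in sham, and Ccr7 had 0.906 RPKM in VSG and 1.5 RPKM in sham. Colonic Ccl8 had 4.28 RPKM in VSG and 3.33 RPKM in sham, and colonic Cxcl16 had 7.44 RPKM in VSG and 6.04 RPKM in sham.

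Apart from the operation, some of the epithelial ligands differed between segments. Each tissue was set against the mean of the others by limma over 9 libraries, without the library labelled sham duodenum, and a call needed an adjusted p under 0.05 and a difference of at least 2-fold. Of the 8 epithelial and mucosal ligands tested, Ccl20, Ccl27a, Cxcl14 and Cxcl16 were called in no tissue. Ccl25 was at 182 and 244 RPKM in VSG and sham jejunum, 168 and 169 RPKM in VSG and sham ileum and 240.2 RPKM in VSG duodenum. Outside the small intestine it was at 3.61 and 2.20 RPKM in VSG and sham colon and at 1.35 and 0.706 RPKM in VSG and sham stomach, so the groups did not overlap. It differed from the other tissues by 3.18 in jejunum (SE 0.21, limma adjusted p = 0.0020), by -4.05 in colon (adjusted p = 5.6e-04) and by -5.23 in stomach (adjusted p = 1.3e-04), on the log2 scale. The calls in ileum (2.78, limma adjusted p = 0.0031) and duodenum (3.32, limma adjusted p = 0.010) were lost without a single library: in ileum without sham ileum (adjusted p = 0.067) or VSG ileum (0.072), and in duodenum without sham ileum (0.055), sham colon (0.050), VSG ileum (0.073) or VSG colon (0.058). Its receptor Ccr9 followed the same segments at a low level, with 0.832 to 1.07 RPKM in jejunum, ileum and VSG duodenum, 0.245 and 0.182 RPKM in VSG and sham colon and 0.142 and 0.112 RPKM in VSG and sham stomach. Slc6a20a, which overlaps Ccr9 on the opposite strand, was high in the same segments and is given below.

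**Figure D3:**
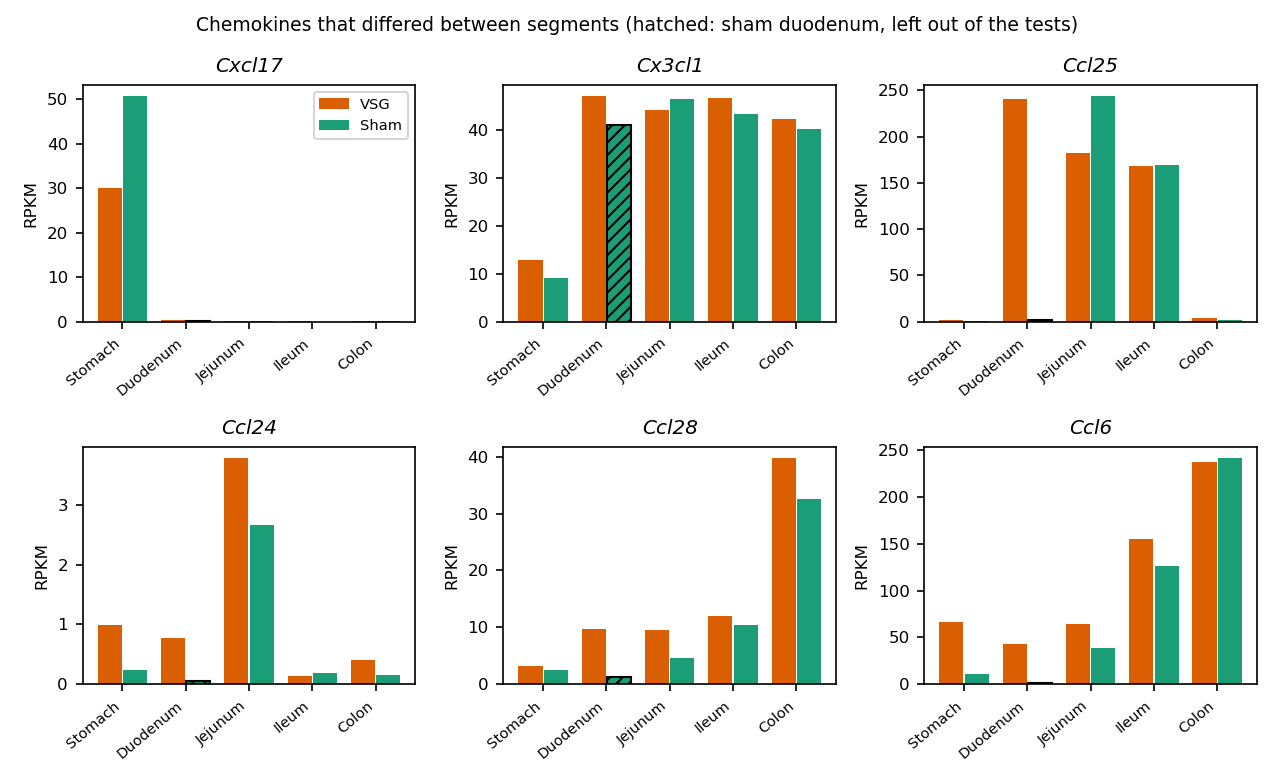
RPKM of 6 chemokine genes along the gut, with the VSG library (orange) left of the sham library (green), 1 library each, each panel on its own axis from 0. Cxcl17 is at 30.1 and 50.8 RPKM in VSG and sham stomach and near 0 elsewhere, Ccl25 is high from duodenum to ileum, and Ccl28 and Ccl6 are highest in colon. Hatched bars are the library labelled sham duodenum.

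In the colon, Ccl28 stood at 39.8 and 32.6 RPKM in VSG and sham libraries, above the 9.76 RPKM of VSG duodenum and the 4.65 to 11.9 RPKM of jejunum and ileum. It was 2.29 above the other tissues in colon (SE 0.16, limma adjusted p = 0.0012) and 1.83 below them in stomach (-1.83, adjusted p = 0.0012), where it had 3.14 and 2.45 RPKM after VSG and sham. Both calls held without each library in turn. Ccl6 had its highest levels in colon, 237 and 242 RPKM after VSG and sham, next to 156 and 126 RPKM in VSG and sham ileum. Its call in colon (2.26, SE 0.52, limma adjusted p = 0.027) was lost without sham jejunum (adjusted p = 0.073), sham ileum (0.064), sham colon (0.21), VSG jejunum (0.067), VSG ileum (0.067) or VSG colon (0.12).

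Cx3cl1 was almost even along the intestine, at 40.1 to 47.1 RPKM in jejunum, ileum, colon and VSG duodenum, and at 12.9 and 9.06 RPKM in VSG and sham stomach. Its stomach difference was -1.93 (SE 0.13, limma adjusted p = 4.6e-04). Cxcl17 was a gene of the stomach, at 30.1 and 50.8 RPKM in VSG and sham stomach and at most 0.313 RPKM elsewhere (5.08, SE 0.20, limma adjusted p = 1.1e-04). Ccl11 was at 35.4 and 27.3 RPKM in VSG and sham stomach and at 7.12 to 18.7 RPKM in the 7 intestinal libraries tested (1.22, SE 0.12, limma adjusted p = 0.0015). Ccl24, another eosinophil attractant, was at 3.79 and 2.66 RPKM in VSG and sham jejunum and under 1 RPKM in all other libraries (1.60, SE 0.19, limma adjusted p = 0.0065). The calls of Cx3cl1, Cxcl17 and Ccl11 held without each library in turn. That of Ccl24 held without each of the other 7 libraries, and without either jejunum library the gene averaged under 1 RPKM and was not tested. Cxcl17 passed the filter on low values only through the stomach libraries, and Ccl24 only through those of jejunum. The values of Cxcl17 and Ccl24 are therefore a description.

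In all, of 39 members tested in each contrast, 8 were called higher in stomach, where 9.08% of 13316 genes were, and 3 lower, where 10.4% of genes were. In colon the counts were 2 higher and 2 lower (7.88% and 4.64% of genes), in jejunum 2 and 1 (3.75% and 5.98%), in ileum 1 and 1 (3.06% and 2.65%) and in duodenum 1 and 0 (3.6% and 1.11%). The single lower call in jejunum (-1.35), in ileum (-1.52) and 1 of those in colon (-1.25) was that of Cxcl17, whose mean over the other tissues is set by stomach. These were lost without a library of the tissue itself: adjusted p was 0.11 without sham jejunum, 0.17 without sham ileum and 0.11 without sham colon, and 0.098, 0.14 and 0.095 without VSG jejunum, VSG ileum and VSG colon. The remaining higher calls in stomach were Cxcl12, Ccl2, Ccl8, Ccl12, Ccr2 and Cxcr2, each far higher in VSG than in sham stomach. Ccl2, Ccl12, Ccr2 and Cxcr2 averaged under 1 RPKM without the VSG stomach library, so they passed the filter only through it. Their calls and that of Cxcl17 are a description, also within the count of 8. Without the VSG stomach library, the median difference of stomach from the other tissues was -0.84 over 24 tested members and -0.14 over all genes. Without the sham stomach library it was 1.84 over 41 tested members and -0.11 over all genes. Each of these fits rests on 1 stomach library. Leaving out any 1 of the other 7 libraries also lowered the count of members called higher in stomach from 8. Ccl2 and Cxcr2 were not called without any 1 of these 7 libraries. Without the VSG stomach library Cxcl12 was at 0.97, just under 2-fold.

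**Figure D4:**
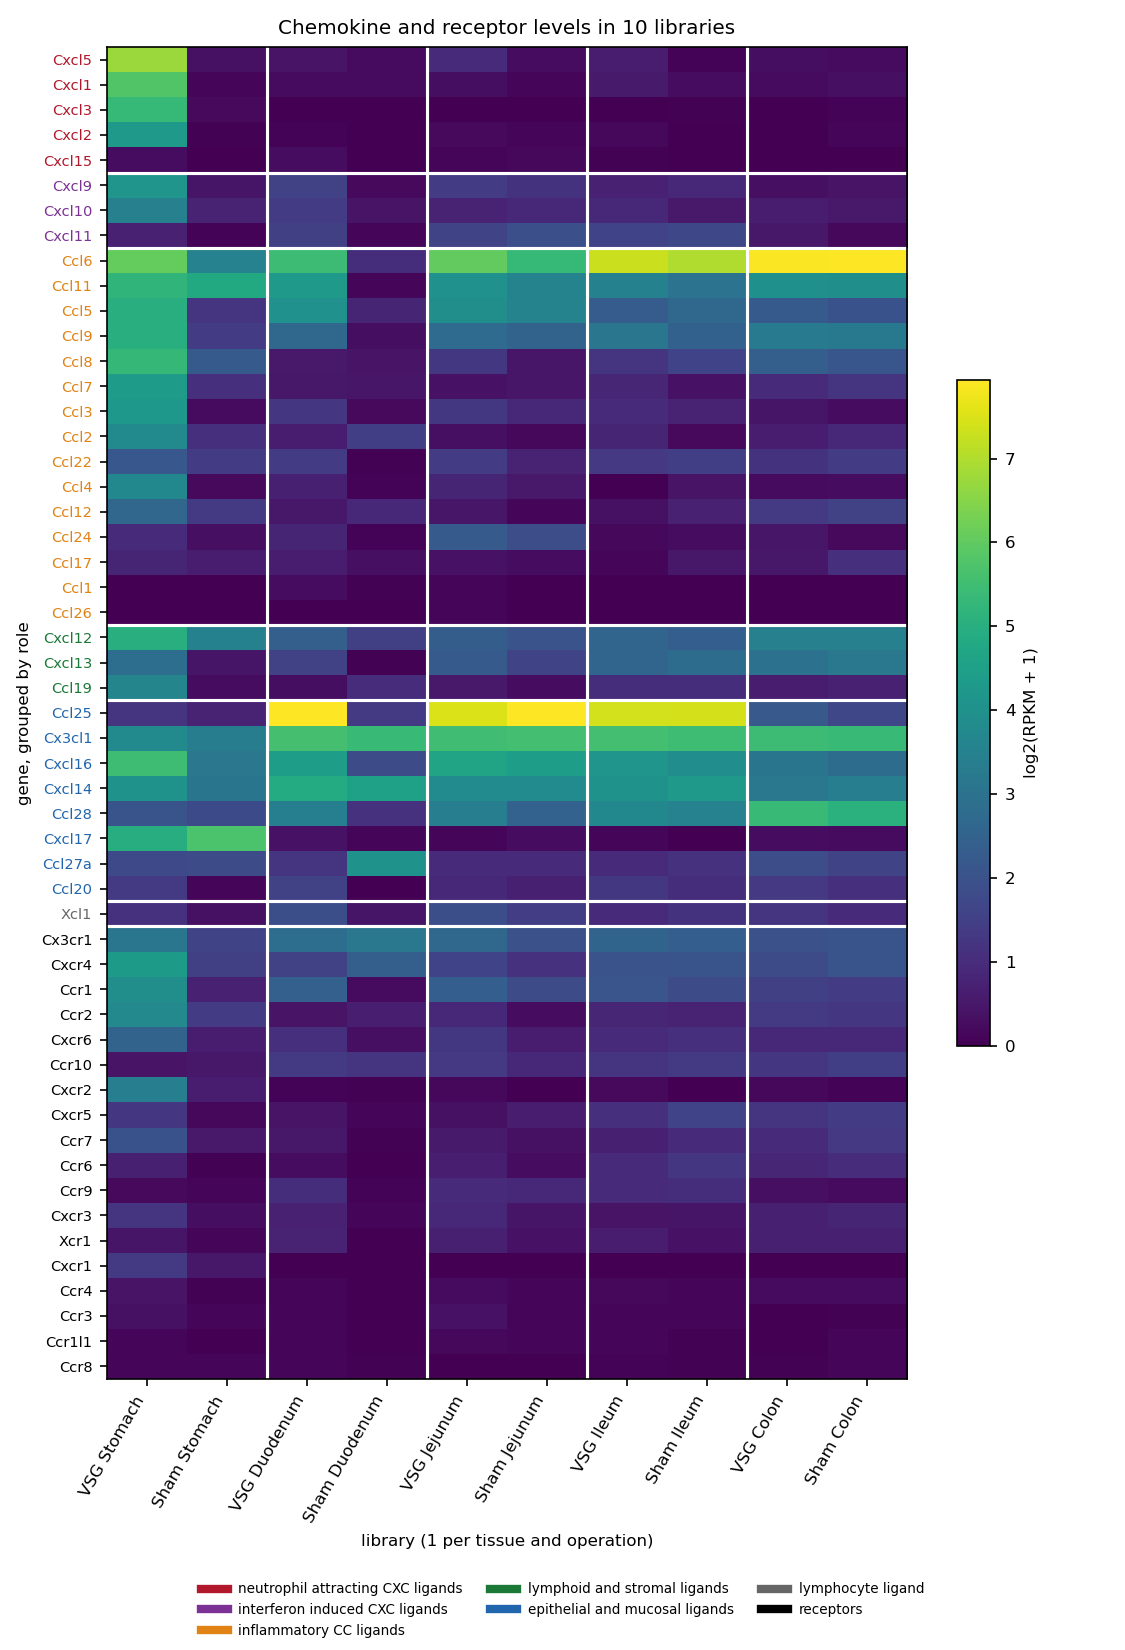
Levels of 53 members above 0 in any library, as log2(RPKM + 1), in rows grouped by role and in columns by tissue with VSG left of sham. The VSG stomach column is bright for the neutrophil, interferon and CC ligands and the leukocyte receptors, the Ccl25 row from duodenum to ileum, and the Ccl6 row in ileum and colon.

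Several ligand and receptor pairs had both partners at higher levels in VSG stomach. Beside Cxcl5 with Cxcr2, Cxcl12 with Cxcr4, Ccl2 with Ccr2 and Cxcl16 with Cxcr6, given above, the receptor of Cxcl9 and Cxcl10, Cxcr3, had 1.29 RPKM in VSG stomach and 0.214 RPKM in sham stomach. Cxcr5 had 1.38 RPKM in VSG stomach and 0.121 RPKM in sham stomach. Ccl20, which draws cells that carry Ccr6 to the epithelium over lymphoid follicles, had 1.57 RPKM in VSG stomach and 0.0858 RPKM in sham stomach, and its difference in stomach exceeded that in intestine by 1.01 (SE 0.12, limma adjusted p = 0.0033). Ccr6 was highest in ileum and colon, at 0.980 and 1.39 RPKM in VSG and sham ileum. Xcl1, made by T and NK cells, had 1.21 RPKM in VSG stomach and 0.280 RPKM in sham stomach, and its receptor Xcr1 of dendritic cells reached at most 0.747 RPKM in any library. The Ccr7 ligand Ccl21a was not analysed here.

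Other genes of the pathway were read from fixed lists. Of 24 kept genes for receptor signalling, 12 were at least 2-fold higher in VSG stomach, against 12.9% of all genes kept. In the same list 14 of 24 tested had a larger difference in stomach than in intestine, against 15.8% of all genes tested, and 1, Arrb1, had a smaller one. Rac2, a GTPase of leukocytes, had 24.7 RPKM in VSG stomach and 2.38 RPKM in sham stomach. Of 11 kept genes for upstream cytokines and NF-kappa B, 7 were at least 2-fold higher in VSG stomach, set beside the same 12.9%. Il1b had 32.1 RPKM in VSG stomach and 0.338 RPKM in sham stomach, and Tnf had 7.08 RPKM in VSG stomach and 0.168 RPKM in sham stomach. The NF-kappa B subunit genes Rela and Nfkb1 had 28.5 and 15.3 RPKM in VSG stomach, against 18.4 and 11.1 RPKM in sham stomach. Of the chemokines of platelets that carry other symbols, Ppbp had 61.3 RPKM in VSG stomach and 1.04 RPKM in sham stomach, and Pf4 had 34.4 RPKM in VSG stomach and 4.23 RPKM in sham stomach. Among 5 kept atypical receptors and relatives, 3 were at least 2-fold higher, Ackr1, Ccrl2 and Cmklr1, and among 5 proteases that trim chemokines 3 were, Mmp9, Mmp8 and Dpp4, again beside 12.9% of all genes. Some genes of these lists, among them Il1b, Tnf, Il17a, Fgr, Pik3cg and Mmp8, were under 1 RPKM in sham stomach. They passed the filter only through VSG stomach, so the list counts of 2-fold differences in stomach are a description. In jejunum, ileum and colon 0 genes of these lists were at least 2-fold higher or lower.

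In the duodenum, the differences set a VSG library against the library labelled sham duodenum, which holds nervous tissue RNA, and operation and tissue cannot be told apart. Of 20 kept members, 11 stood higher and 1 lower in VSG duodenum by 2-fold or more, against 27.5% and 27.9% of all genes. Ccl25 had 240.2 RPKM in VSG duodenum and 1.55 RPKM in the library labelled sham duodenum. Ccl6, Ccl11 and Ccl5 had 42.4, 18.7 and 15.3 RPKM in VSG duodenum, against 1.04, 0.0774 and 0.782 RPKM in that library. The member that was lower was Ccl27a, with 1.34 RPKM in VSG duodenum and 15.9 RPKM in the library labelled sham duodenum.

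Some values depend on how reads were assigned. The library kit named in the labels does not mark strand, so reads from genes that overlap on opposite strands cannot be told apart. Exons of Gm2673 cover 41.7% of the exon bases of Cxcl11, those of Gm20743 cover 18.7% of Xcl1, and those of Zmynd15 cover 18.3% of Cxcl16. Zmynd15 had 2.78 RPKM in VSG stomach and 0.723 RPKM in sham stomach, against 43.0 and 7.82 RPKM for Cxcl16. For Ccr9, exons of AC165425.1 cover 18.8% of its exon bases and those of Slc6a20a share 22 bases. Slc6a20a had 105 to 161 RPKM in jejunum, ileum and VSG duodenum and 4.08 to 7.18 RPKM in stomach and colon. Its part in the low Ccr9 values was not tested. Ccl19, Ccl21d and Ccl27a have near-identical copies in the mouse genome, and how reads shared among copies were counted is not given in the sources used here, so their levels are uncertain.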

How the data were processed

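Per the labels' protocols, the RNA came from a TRIzol extraction and the libraries from a TruSeq kit. GSNAP, Cufflinks and mm10 are named in the submitters' processing notes, without roles. The authors deposited 1 table of RPKM values, with 23079 genes by Entrez identifier and 10 libraries. Symbols were matched for 23008 identifiers (99.69%). Between rows 27 and 18213 the 8 intestinal columns stood 1 row lower than the identifiers and were moved back. Of 1661 genes tested there, 62 (3.73%) returned whole reads (tolerance 0.001) in all libraries as deposited and 1659 (99.88%) after the move. Another 15 rows that returned no whole reads were left out. Recovered reads were used for depth and for exact conditional binomial 95% intervals of ratios, which cover counting error only.

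A gene was kept where the libraries compared averaged 1 RPKM or more. limma 3.58.1 (R 4.3.3) with trend was fitted to log2(RPKM + 1) over all kept genes, with tissue as a block for the operation, and p-values were adjusted by Benjamini-Hochberg over all genes. The fit over 4 tissues left out duodenum, and the fit of tissues used 9 libraries. Residual degrees of freedom were 2 or 3. Only the fit of VSG against sham over 4 tissues was tested on simulated data, with the same spread for all genes. The fits of stomach against intestine, of the 3 intestinal tissues and of tissues were not. Within a tissue, at least 2-fold on that scale was called, without a test. No count test was run as a main result, since RPKM is not a count.

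The genes named are all those called in a fit, the 5 largest differences in each tissue, the 3 highest of each role and 12 ligand and receptor pairs. The members, roles and lists were chosen with earlier results of these data known. Alternatives were a pseudocount of 0.1, no filter, rescaled libraries, no trend, rows as deposited, all 10 libraries and each library or pair left out. Some genes counted in the totals are not reported here by name.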

Additional observations from a re-analysis of the deposited data

Results flagged for a closer look

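The difference between VSG and sham stomach differed from that in jejunum, ileum and colon, by a test of the difference itself (limma, Benjamini-Hochberg adjusted p under 0.05), for 31 chemokine and receptor genes, of which 30 are given. Over all 13350 genes tested, 15.8% had a larger and 10% a smaller difference in stomach. Of the 41 members tested, 17 passed the filter only through the stomach libraries, among them Cxcl5, Cxcl1, Cxcl3 and Cxcl2, and their values are a description. Over genes kept on the intestinal libraries alone, 14 of 24 members and 13.9% of genes had the larger difference in stomach. The values are the stomach difference minus the mean intestinal difference on the log2(RPKM + 1) scale. Among the neutrophil and interferon ligands they were 5.95 for Cxcl5, 5.57 for Cxcl1, 5.15 for Cxcl3, 4.22 for Cxcl2, 3.69 for Cxcl9 and 2.59 for Cxcl10. Among the CC ligands they were 3.74 for Ccl3, 3.64 for Ccl5, 3.54 for Ccl4, 3.29 for Ccl9, 3.25 for Ccl7, 2.79 for Ccl8, 2.52 for Ccl2, 2.22 for Ccl6 and 1.34 for Ccl12. The lymphoid, stromal and epithelial ligands had 3.27 for Ccl19, 2.37 for Cxcl13, 1.32 for Cxcl12, 2.10 for Cxcl16, 1.10 for Cxcl14, 1.01 for Ccl20 and -0.72 for Cxcl17. The receptors had 2.88 for Ccr1, 2.74 for Cxcr4, 2.63 for Cxcr2, 2.08 for Ccr2, 1.72 for Cxcr6, 1.59 for Ccr7, 1.41 for Cxcr5 and 1.25 for Cx3cr1.

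The library labelled sham duodenum, left out of the reported fits, held some members at 1 RPKM or more and above the other 4 sham libraries. Among them were Cxcl14 at 22.5 RPKM, Ccl27a at 15.9 RPKM, Cx3cr1 at 8.09 RPKM, Cxcr4 at 4.27 RPKM and Ccl2 at 1.80 RPKM. Neuron and glia markers were high in the same library, and their part in these values was not tested.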

How the results depend on the processing

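Counts are of chemokine and receptor genes, and the cause of a change was not tested unless the setting itself removes genes or libraries. The count with a larger stomach than intestinal difference was 30 in the reported fit and 26 to 31 with 1 intestinal pair left out. It was 26 with a pseudocount of 0.1, where Ccl12 (adjusted p = 0.24), Ccl2 (0.082), Ccl8 (0.067) and Ccr2 (0.086) were not called, and 26 with rows as deposited, where Ccl12 (0.077), Ccr7 (0.057), Cxcl14 (0.23) and Cxcr5 (0.11) were not and Ccl20 was not tested. Without a filter Ccl12 (0.069) and Cx3cr1 (0.088) were not called. It was 14 over genes kept on the intestinal libraries alone, which counts fewer genes in the same fit. The count with a smaller one was 1, and 0 with a pseudocount of 0.1, without a filter, after rescaling libraries to 1 sum or over genes kept on the intestinal libraries alone, and 0 to 1 with a pair left out. Over the 3 intestinal tissues the count higher was 0 to 1 with a pair left out. Within stomach, 12 were at least 2-fold higher over genes at 1 RPKM or more in sham alone, and 1 was lower with libraries scaled without the 10 highest genes. Within jejunum, 3 were higher with a pseudocount of 0.1 and 1 after rescaling, which moved the median of all genes there by 0.13. Within duodenum, 4 were higher over genes at 1 RPKM or more in sham alone, and 3 were lower with a pseudocount of 0.1, 4 with either other scaling and 3 with rows as deposited. Rescaling to 1 sum shifted the median over all genes by 0.17 in stomach and by -0.82 in duodenum.

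Of the tissue calls, with all 10 libraries there were in stomach 2 higher and 1 lower, in colon 1 and 0, and in duodenum, ileum and jejunum 0 and 0. With rows as deposited there were in stomach 15 higher and 7 lower, in colon 4 lower, in duodenum 2 and 2, in ileum 2 and 2, and in jejunum 2 lower. In stomach that setting called 3910 of 14634 genes higher and 4620 lower. A pseudocount of 0.1 gave 5 lower in stomach and 2 lower in ileum, and rescaling gave 2 lower in ileum. With 1 library left out the counts were 3 to 26 higher and 3 to 10 lower in stomach, 1 to 3 and 1 to 13 in colon, 0 to 3 and 0 to 10 in duodenum, 0 to 2 and 0 to 8 in ileum, and 1 to 3 and 0 to 9 in jejunum. The direction turned only with rows as deposited, where a row of the intestinal columns holds the values of another gene: Ccl6 in colon (-1.55), Ccl25 in duodenum (-0.21) and ileum (-0.81), Ccl24 (-0.071) and Cxcl17 (0.36) in jejunum, Ccl12 (-1.76), Ccl25 (0.17), Ccl28 (0.68) and Cx3cl1 (1.94) in stomach, and, between VSG and sham duodenum, Ccl28 (-2.86) and Ccr1 (-1.54).

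With 1 library per tissue and operation, the libraries bear no replicate numbers and tissue served as the block. No call over the operation was gained in the fits without that block. Sham stomach values under 0.3 RPKM rest on few reads, 5 for Cxcl1 and 6 for Cxcl2, so the size of such ratios is imprecise, as their intervals show.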
